A study of Mus musculus with 17 samples.

Results

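The mouse genes of the p53 response, 34 in number, were followed through 17 kidney RNA libraries, out of 42794 genes with a complete line in the deposited FPKM table (fragments per kilobase of gene, scaled to the mapped fragments of the library, a level per gene length). They were matched by gene name and sorted by what they are known to do: 5 belong to the feedback around p53, 7 to growth arrest and stress signalling, 12 to cell death, 5 to DNA repair and 5 to metabolism. The genes had been picked as p53 targets, and their classes set, with the results of these libraries in view, among them the rise over control kidneys. The differences of genes and classes from control are therefore a description. Where calls of the fit over all genes are given for those differences, the choice of the genes had part in them and they support nothing. The comparison of the shRNA groups with each other was tested.

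Mouse kidneys made up 3 groups. The libraries labelled Gcgr shRNA (n = 7) carry the genotype label of a knockdown of Gcgr, the glucagon receptor gene. The libraries labelled Ctr shRNA (n = 6) carry the control shRNA, although their titles read DKD and Vehicle. The control libraries (n = 4) are labelled WT and come from kidneys without either shRNA label. Titles of both shRNA groups carry DKD, and the series is about diabetic kidney disease, so the disease and the treatment with an shRNA are shared by both groups and cannot be told apart in a comparison with control. The design places the knockdown in proximal tubule epithelial cells, whereas the libraries were made from kidney. The sources used here do not give strain, age, sex, the vector or the way disease was induced. Labels do not tie libraries to separate animals, so p-values measure only the spread between these libraries.

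The protein p53 is a transcription factor that is kept scarce by Mdm2, a ubiquitin ligase whose own gene it switches on. DNA damage and other stresses release it from this control, after which it activates genes that halt the cell cycle, prepare the cell for death, mend DNA and adjust metabolism. In the kidney this response is best known in tubular cells after acute injury, where p21, the product of Cdkn1a, is among its most inducible products.

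Promoter windows from RefSeq (build GRCm38.p6, 250 bases before to 50 bases after a gene's start) were matched to 26 of the 34 genes by symbol. Each was searched on both strands for the p53 half-site, a consensus of 10 letters that reads the same on either strand, and no other motif was searched. A half-site was present in 10 of the 26 genes (38.5%), against 9.55% of the 27025 genes with a window. By function these were 3 of 4 feedback genes (Trp53, Mdm2 and Ccng1), 1 of 7 arrest genes (Cdkn1a), 3 of 8 death genes (Bax, Aen and Ei24), 1 of 2 repair genes (Polk) and 2 of 5 metabolic genes (Abhd4 and Sesn1). Below are 4 of these windows, shown because they belong to one widely known target each of the arrest and death classes and to a pair of feedback genes whose libraries stood apart from control. Capitals mark the half-sites, and every sequence runs 5′ to 3′ on the gene's own strand.
Cdkn1a, chr17:29090729-29091028, plus strand: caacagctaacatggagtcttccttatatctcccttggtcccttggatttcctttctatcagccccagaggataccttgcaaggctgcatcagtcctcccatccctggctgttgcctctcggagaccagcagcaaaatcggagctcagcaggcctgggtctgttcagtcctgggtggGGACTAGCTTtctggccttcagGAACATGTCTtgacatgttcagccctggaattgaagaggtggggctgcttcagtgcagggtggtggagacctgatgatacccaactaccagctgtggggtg
Mdm2, chr10:117710709-117711008, minus strand: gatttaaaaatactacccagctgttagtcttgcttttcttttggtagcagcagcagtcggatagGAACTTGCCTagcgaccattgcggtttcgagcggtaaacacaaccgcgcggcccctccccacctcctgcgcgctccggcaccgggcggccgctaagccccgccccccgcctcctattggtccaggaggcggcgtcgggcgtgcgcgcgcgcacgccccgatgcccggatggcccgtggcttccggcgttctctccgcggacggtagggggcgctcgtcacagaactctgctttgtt
Ccng1, chr11:40755237-40755536, minus strand: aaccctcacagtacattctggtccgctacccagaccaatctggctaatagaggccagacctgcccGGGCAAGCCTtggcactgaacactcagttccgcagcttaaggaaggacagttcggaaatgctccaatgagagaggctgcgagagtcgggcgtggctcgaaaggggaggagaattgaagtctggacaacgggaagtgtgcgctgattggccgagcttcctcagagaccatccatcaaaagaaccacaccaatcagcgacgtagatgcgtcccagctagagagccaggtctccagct
Bax, chr7:45466849-45467148, minus strand: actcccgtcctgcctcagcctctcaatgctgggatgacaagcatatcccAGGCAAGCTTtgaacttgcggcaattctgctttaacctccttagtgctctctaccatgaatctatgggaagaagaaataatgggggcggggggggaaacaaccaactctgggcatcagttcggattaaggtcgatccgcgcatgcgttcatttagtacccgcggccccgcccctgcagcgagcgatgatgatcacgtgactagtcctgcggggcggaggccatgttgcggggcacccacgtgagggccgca
The half-sites of Cdkn1a began 73 and 51 bases before the upstream RefSeq start of this gene, and the window of its downstream RefSeq start held none. Only exact matches to the consensus were marked, so sites with a mismatch stay in small letters. Cdkn1a was the 1 member with 2 exact half-sites separated by at most 13 bases, a spacing that a full p53 site can have. Such a pair was held by 20 of the 27025 genes (0.074%) in their windows. Directly after GAACATGTCT stand the letters tgacatgttc, which miss the consensus only in the opening letter, so a closer pair is left unmarked. Which of these half-sites p53 uses was not tested. Single half-sites began 186 bases before the start of Mdm2, 185 bases before that of Ccng1 and 201 bases before that of Bax. A match of letters is a description of the window and not evidence of binding, and sites elsewhere in these genes were not searched. Of the 16 genes described below whose shRNA libraries all lay above control, 14 had a window and 5 of those held a half-site. Of the other 18 genes, 12 had a window and 5 of those held a half-site.

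Reads recovered from the FPKM steps numbered 13997657 to 17107876 per library, and 12183 to 12919 genes reached 1 FPKM. Gcgr averaged 13.02 ± 1.70 FPKM in libraries labelled Gcgr shRNA and 9.74 ± 2.14 FPKM in Ctr shRNA libraries (SD, n = 7 and 6). Control libraries averaged 20.8 ± 2.42 FPKM (SD, n = 4). The mean of Gcgr in kidney RNA was thus not lower under the Gcgr label than under the control shRNA. Kidney RNA does not separate proximal tubule cells from other cells, so the knockdown in those cells was not tested. The group is named by its label throughout. The defining markers of the proximal tubule, 10 genes such as Lrp2 and Slc34a1, were present in every library, with a summed level of 3512 to 4431 FPKM in libraries labelled Gcgr shRNA, 3106 to 4600 FPKM in Ctr shRNA libraries and 4682 to 5640 FPKM in control libraries. In bulk tissue, fewer cells of a type and less RNA per cell cannot be told apart. Of these 10 genes, 0 averaged above control in libraries labelled Gcgr shRNA and 1 did in Ctr shRNA libraries. Macrophage markers summed to 96.2 to 167 FPKM in libraries labelled Gcgr shRNA, 69.2 to 169.6 FPKM in Ctr shRNA libraries and 68.0 to 90.4 FPKM in control libraries, with 7 of 8 genes averaging above control in both shRNA groups and Mrc1, one of the 7, under 1 FPKM throughout. The other gene, Csf1r, the macrophage growth factor receptor, lay below control, by −0.52 ± 0.14 on the log2(FPKM + 1) scale (SE) in libraries labelled Gcgr shRNA (adjusted p = 0.0776 in limma) and by −0.95 ± 0.15 in Ctr shRNA libraries (0.00103). The 6 T and NK cell markers, all of which averaged above control in both groups, summed to 3.82 to 7.66 FPKM in libraries labelled Gcgr shRNA, 2.37 to 9.96 FPKM in Ctr shRNA libraries and 1.34 to 2.18 FPKM in control libraries, with Cd3e, Cd3g, Cd8a and Cd4 under 1 FPKM in every library. The library Ctr shRNA 20 stood apart, with 622 FPKM of fat cell markers and 176 FPKM of urothelial markers, against at most 38.3 and 11.7 FPKM in any other library. The part of these cell markers in the differences below was not tested.

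Arrest genes lay furthest from control, followed by death and feedback genes, while repair genes and most metabolic genes stayed near control. Genes and classes were chosen with earlier results of these libraries known, so this order is a description and supports nothing. The median difference from control over the class, on the log2(FPKM + 1) scale, was 1.26 for arrest genes in libraries labelled Gcgr shRNA and 1.25 in Ctr shRNA libraries. In libraries labelled Gcgr shRNA it was 0.55 for death, 0.50 for feedback, 0.08 for metabolic and −0.13 for repair genes. In Ctr shRNA libraries it was 0.56 for death, 0.47 for feedback, 0.03 for metabolic and −0.16 for repair genes. Over all 34 genes the median was 0.46 in both groups, while over the 13279 genes tested it was −0.0049 for Gcgr shRNA and 0.0071 for Ctr shRNA. Both sets of differences share the 4 control libraries.

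Limma, a linear model fitted over all genes that reached 1 FPKM in at least 4 libraries, tested 33 of the 34 genes. In libraries labelled Gcgr shRNA against control, 17 of the 33 passed an adjusted p of 0.05 as higher, where 1.42% of all genes tested did, and 0 passed as lower, where 0.595% did (3 at an unadjusted p under 0.05, and 0 with limma's voom on recovered reads). In Ctr shRNA against control, 19 of the 33 passed as higher, against 3.58% of all genes tested, and 0 as lower, against 3.91% (3 at an unadjusted p under 0.05, and 0 with voom). By class, 6 of 7 arrest genes, 7 of 11 death genes tested and 1 of 5 metabolic genes passed as higher in each comparison. Of the 5 feedback genes, 3 passed for Gcgr shRNA and 4 for Ctr shRNA, and of the 5 repair genes, 0 passed for Gcgr shRNA (3 at an unadjusted p under 0.05 in either direction, and 0 with voom) and 1 for Ctr shRNA. Nothing is read from these counts, because the genes were chosen with the same contrast known and because Psrc1, Eda2r and Tnfrsf10b, counted in both comparisons, entered the fit only through their high groups.

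A stricter separation was counted over libraries. For 16 of the 34 genes, all 13 shRNA libraries lay above all 4 control libraries, and 15 of these 16 were among the 33 tested, where 1.84% of all genes tested separated in this way. All 13 lay below control for 1 gene, Mdm4, where 1.27% of all genes tested did. The 16 were 6 of 7 arrest genes, 6 of 12 death genes, 3 of 5 feedback genes, 1 of 5 metabolic genes and 0 of 5 repair genes, and the ranges of the remaining 17 overlapped. These counts support nothing either, because the genes were chosen with the rise over control known. Psrc1, Eda2r and Tnfrsf10b are among the 15 and were tested only through their high groups.

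**Figure D1:**
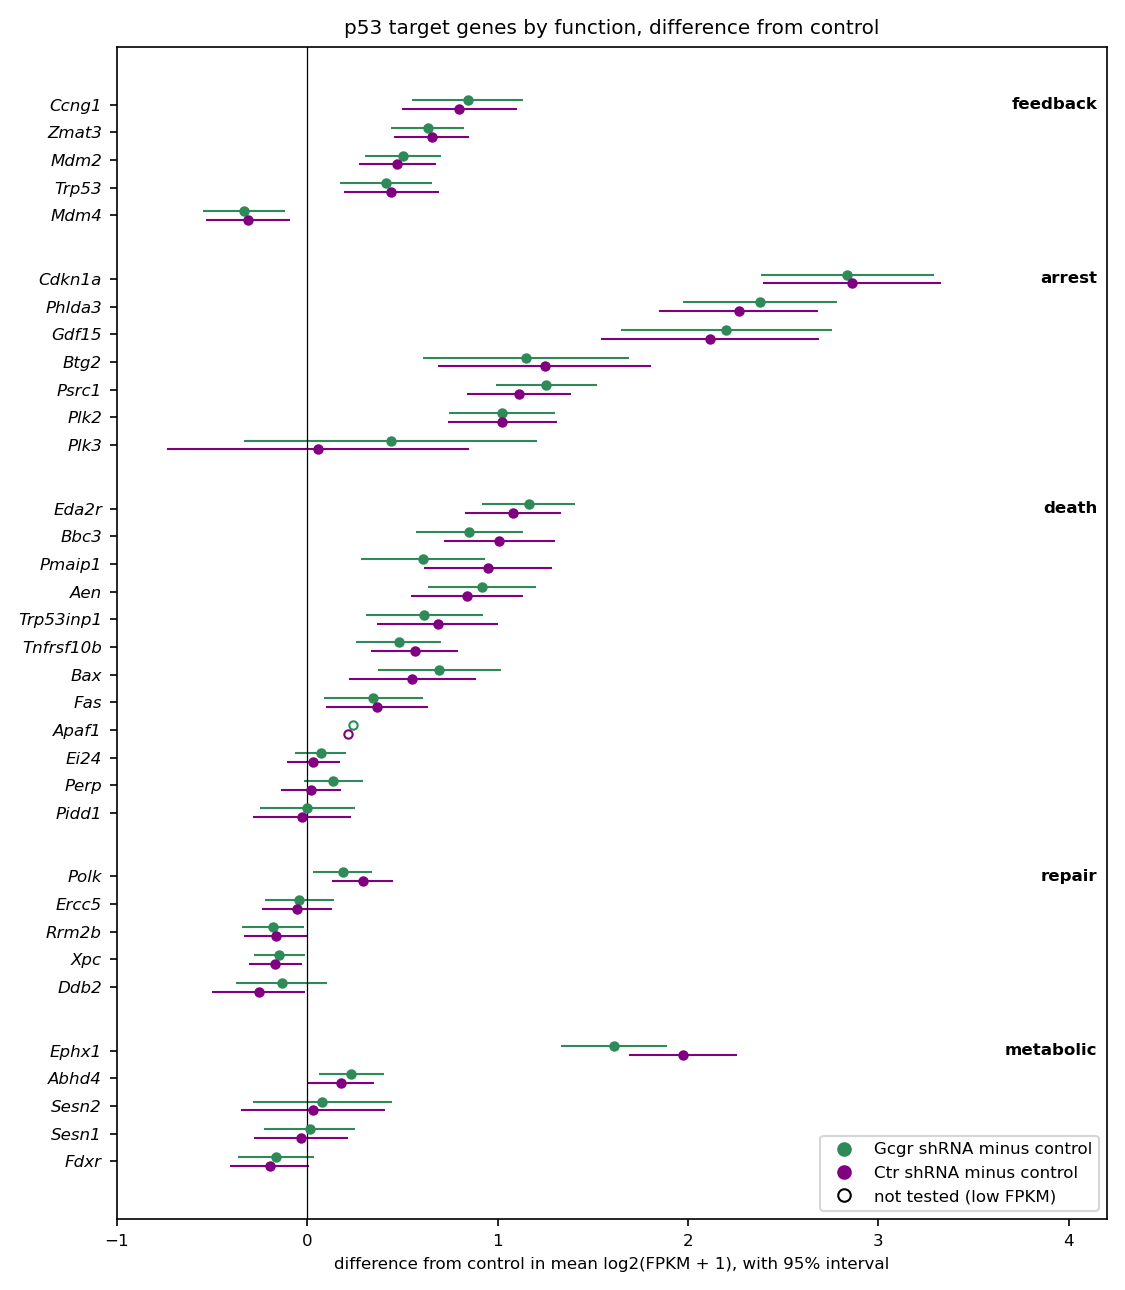
Difference from control in mean log2(FPKM + 1) for the 34 genes, grouped by function down the page, with green points for Gcgr shRNA minus control, purple points for Ctr shRNA minus control, bars for the 95% interval of the fit and open points for Apaf1, which was too low to be tested. Cdkn1a, Phlda3, Gdf15 and Ephx1 lie furthest to the right, and 4 of 5 repair genes lie slightly left of 0.

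Among the feedback genes, those of p53 itself, of Mdm2, of cyclin G1 and of Zmat3 were higher in the shRNA libraries and Mdm4 was lower. Trp53, which encodes p53 (chromosome 11, 69580359 to 69591873, GRCm38), had 7.60, 9.39 and 11.4 FPKM as lowest, median and highest value in libraries labelled Gcgr shRNA. Its Ctr shRNA libraries had 7.90, 9.77 and 12.6 FPKM, and the control libraries had 6.89, 6.23, 7.72 and 6.86 FPKM. All but one shRNA library lay above every control library. The exception was Gcgr shRNA 31 at 7.60 FPKM. Trp53 lay close to the threshold in both comparisons: it passed for Ctr shRNA and missed for Gcgr shRNA, where it passed without Gcgr shRNA 31 or without Ctr shRNA 4 (lowest adjusted limma p 0.0407). The ratio of means was 1.39 for Gcgr shRNA over control and 1.42 for Ctr shRNA over control.

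Mdm2 (chromosome 10, 117688875 to 117710758), whose promoter window is printed above, ranged over 13.4, 15.2 and 18.4 FPKM in libraries labelled Gcgr shRNA and 12.6, 14.8 and 17.96 FPKM in Ctr shRNA libraries (lowest, median, highest). Control libraries held 10.6, 10.9, 10.9 and 10.3 FPKM, the narrow band visible in the plot of FPKM by library. No shRNA library reached down into that band, and the ratio to control was 1.46 for Gcgr shRNA and 1.44 for Ctr shRNA. Mdm4, a relative of Mdm2 that binds p53 and restrains its activity, had 3.10, 3.89 and 4.76 FPKM in libraries labelled Gcgr shRNA, 3.04, 4.32 and 4.52 FPKM in Ctr shRNA libraries and 5.62, 4.86, 5.22 and 4.88 FPKM in the control libraries. All 13 shRNA libraries thus lay under all 4 controls, with a log2(FPKM + 1) difference of −0.33 ± 0.10 (SE) for Gcgr shRNA and −0.31 ± 0.10 for Ctr shRNA, neither of which passed the adjusted threshold. Without the 2 libraries Ctr shRNA 20 and Gcgr shRNA 31 the Ctr shRNA difference was −0.34 and passed (adjusted p = 0.0490 in limma).

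Ccng1, cyclin G1, which guides a phosphatase to Mdm2, was the most abundant of the 34 genes in FPKM in the shRNA groups. It reached 98.05, 109 and 136 FPKM in libraries labelled Gcgr shRNA, 87.4, 107 and 137 FPKM in Ctr shRNA libraries and 64.7, 69.5, 53.3 and 60.7 FPKM in control. Every shRNA library lay above control, and the Ctr shRNA libraries ranged most widely, with Ctr shRNA 20 lowest and Ctr shRNA 19 highest. Zmat3, an RNA-binding zinc finger protein, averaged 4.30 ± 0.705 FPKM in libraries labelled Gcgr shRNA, 4.34 ± 0.338 FPKM in Ctr shRNA libraries and 2.39 ± 0.195 FPKM in control, with no overlap. In Ctr shRNA against control the adjusted limma p of Trp53 rose to as much as 0.107 when Ctr shRNA 1, 4 or 6 or any control library was left out.

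**Figure D2:**
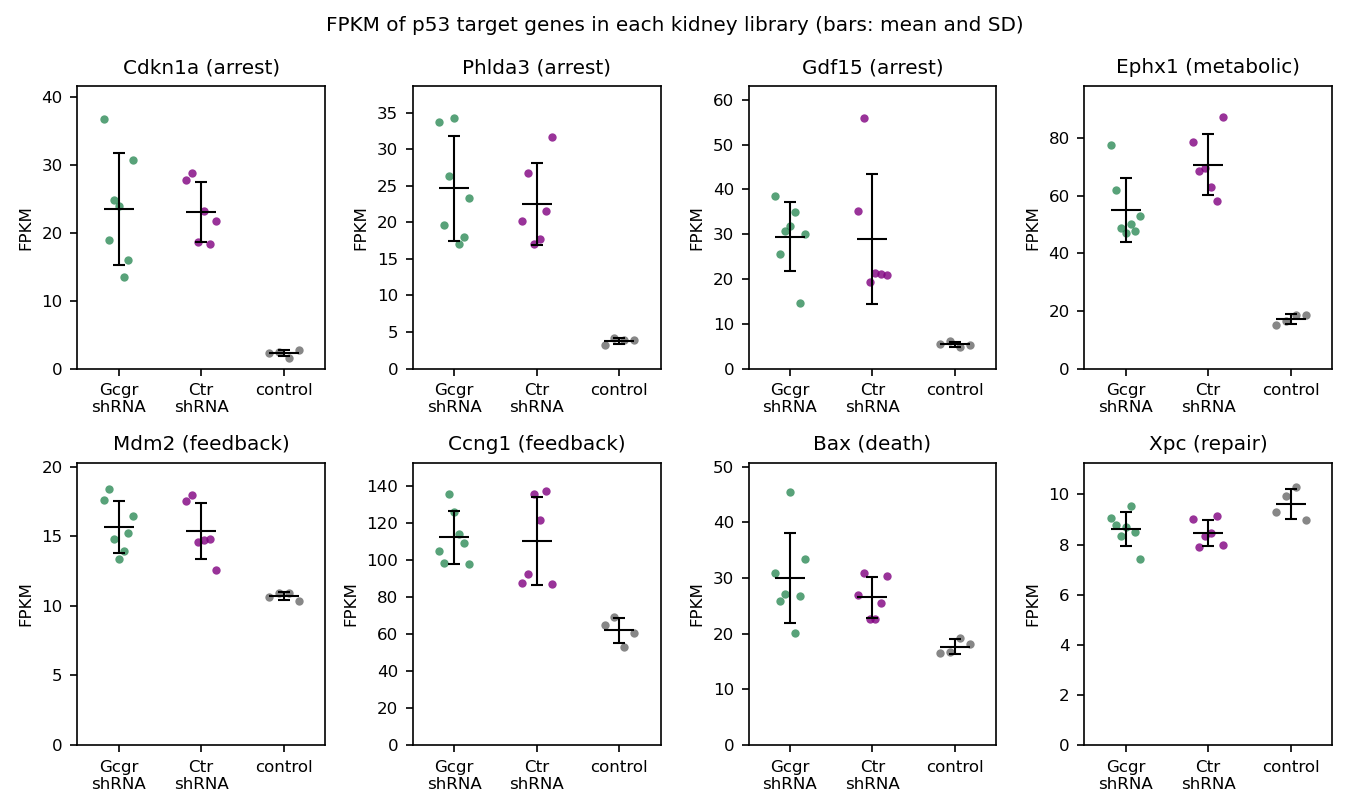
FPKM (vertical axis, linear from 0) of 8 genes in each library, with 1 dot per library, Gcgr shRNA at the left, Ctr shRNA in the middle and control at the right, and bars for the group mean and SD. The control dots of Cdkn1a, Phlda3, Gdf15 and Ephx1 sit far under both shRNA groups, those of Mdm2, Ccng1 and Bax sit closer, and those of Xpc overlap the shRNA libraries from above.

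Cdkn1a, which encodes the cyclin-dependent kinase inhibitor p21, showed the widest difference of the 34 genes on the log2(FPKM + 1) scale (chromosome 17, 29090976 to 29100727). Libraries labelled Gcgr shRNA had 13.4, 23.98 and 36.7 FPKM (lowest, median, highest), Ctr shRNA libraries had 18.3, 22.5 and 28.7 FPKM and the control libraries had 2.32, 2.45, 1.61 and 2.79 FPKM. The lowest shRNA library, Gcgr shRNA 32, still stood well above the highest control library. The mean was 23.5 ± 8.26 FPKM in libraries labelled Gcgr shRNA, 23.1 ± 4.41 FPKM in Ctr shRNA libraries and 2.29 ± 0.493 FPKM in control libraries (SD, n = 7, 6 and 4), a ratio to control of 10.2 for Gcgr shRNA and 10.1 for Ctr shRNA. The same gene carries the 2 half-sites printed above.

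Phlda3 and Gdf15 followed in size. Phlda3, which competes with the survival kinase Akt for membrane lipids, had 17.1, 23.3 and 34.2 FPKM in libraries labelled Gcgr shRNA, 17.1, 20.9 and 31.6 FPKM in Ctr shRNA libraries and 3.21, 4.23, 3.89 and 3.83 FPKM in control, a ratio to control of 6.501 for Gcgr shRNA and 5.94 for Ctr shRNA. Gdf15, a secreted stress cytokine, had 14.5, 30.8 and 38.7 FPKM in libraries labelled Gcgr shRNA, 19.4, 21.2 and 55.9 FPKM in Ctr shRNA libraries and 5.49, 6.08, 4.84 and 5.24 FPKM in control libraries. Its Ctr shRNA values were uneven: Ctr shRNA 4 reached 55.9 FPKM and Ctr shRNA 1 35.1 FPKM, while the other 4 libraries lay between 19.4 and 21.2 FPKM. Gcgr shRNA 34 was the lowest of all shRNA libraries at 14.5 FPKM, still above control.

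The remaining arrest genes were expressed at lower levels or varied more. Btg2, an antiproliferative cofactor, ranged over 9.75, 13.9 and 22.8 FPKM in libraries labelled Gcgr shRNA, 8.93, 15.1 and 28.4 FPKM in Ctr shRNA libraries and 5.04, 6.60, 5.02 and 6.44 FPKM in control, and the Gcgr shRNA call was lost (adjusted limma p up to 0.109) without Gcgr shRNA 13 or 35 or control 37, 38 or 39. Plk2, a polo-like stress kinase, had 3.02, 5.17 and 5.88 FPKM in libraries labelled Gcgr shRNA, 3.58, 5.19 and 5.48 FPKM in Ctr shRNA libraries and 1.79, 2.09, 1.55 and 2.08 FPKM in control libraries, so that its lowest shRNA library lay above its highest control. Its relative Plk3 did not separate: 6.65, 11.00 and 18.3 FPKM in libraries labelled Gcgr shRNA and 3.31, 10.2 and 15.3 FPKM in Ctr shRNA libraries enclosed the control values of 4.38, 9.37, 6.76 and 13.7 FPKM. Plk3 varied 5.52-fold among the 13 shRNA libraries and 3.14-fold among the 4 controls, and its interval against control ran from −0.33 to 1.21 for Gcgr shRNA and from −0.73 to 0.85 for Ctr shRNA, so the difference of 1.03 seen for Plk2 lay inside the Gcgr shRNA interval.

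Psrc1, a spindle-associated protein gene, had 1.10, 1.51 and 2.62 FPKM in libraries labelled Gcgr shRNA, 1.24, 1.43 and 1.53 FPKM in Ctr shRNA libraries and 0.0210, 0.152, 0.176 and 0.0925 FPKM in control. It rested on 626 recovered reads in all libraries labelled Gcgr shRNA, 473 in all Ctr shRNA libraries and 23 in all control libraries, and the ratio of means to control was 15.3 for Gcgr shRNA and 12.7 for Ctr shRNA. Together with Eda2r and Tnfrsf10b, Psrc1 reached 1 FPKM in shRNA libraries and in no control library. These 3 genes thus passed the filter on low values only through the high groups. Such entry favours a difference, and their calls support nothing.

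Death genes ranged from Eda2r, Bbc3 and Aen, whose shRNA libraries all lay above control, through genes whose lowest shRNA libraries came close to control or overlapped it, to genes at the control level. Bax (chromosome 7, 45461697 to 45466898), whose product opens the outer mitochondrial membrane, had 20.1, 27.1 and 45.5 FPKM in libraries labelled Gcgr shRNA, 22.7, 26.2 and 30.95 FPKM in Ctr shRNA libraries and 16.6, 16.7, 19.3 and 18.2 FPKM in control. Its lowest shRNA library, Gcgr shRNA 32, exceeded the highest control by under 1 FPKM, and its highest was Gcgr shRNA 31. Bax did not keep its call when single libraries were left out: the adjusted limma p reached 0.1004 for Gcgr shRNA (without Gcgr shRNA 13 or 35 or any control) and 0.119 for Ctr shRNA (without Gcgr shRNA 13 or 34, Ctr shRNA 1, 4 or 20 or any control).

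The BH3-only genes Bbc3 (Puma) and Pmaip1 (Noxa), whose products bind the antiapoptotic relatives of Bax, were both higher than control. Bbc3 had 3.02, 4.25 and 5.01 FPKM in libraries labelled Gcgr shRNA, 3.82, 4.69 and 6.30 FPKM in Ctr shRNA libraries and 2.42, 1.99, 1.49 and 1.58 FPKM in control. Pmaip1 had 3.01, 4.83 and 5.33 FPKM in libraries labelled Gcgr shRNA, 4.54, 6.58 and 7.58 FPKM in Ctr shRNA libraries and 2.16, 3.75, 2.89 and 2.14 FPKM in control libraries. Every shRNA library lay above control for Bbc3, and every one except Gcgr shRNA 34 did for Pmaip1. The Pmaip1 call in Gcgr shRNA was close to the threshold and was lost without any one of Gcgr shRNA 13, 15, 29, 31, 32 or 35 or Ctr shRNA 1 or 6 or control 37, 39 or 41, with an adjusted limma p of up to 0.190.

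The receptor genes differed among themselves. Eda2r, a receptor of the tumour necrosis factor family, had 0.986, 1.54 and 2.07 FPKM in libraries labelled Gcgr shRNA, 1.07, 1.32 and 1.49 FPKM in Ctr shRNA libraries and 0.0838, 0.0651, 0.101 and 0.0845 FPKM in control. These rested on 953 recovered reads in all libraries labelled Gcgr shRNA, 762 in all Ctr shRNA libraries and 30 in all control libraries. Its ratios of means to control, 17.4 for Gcgr shRNA and 15.5 for Ctr shRNA, were the highest of the 34 genes, at a low level. Tnfrsf10b, the mouse TRAIL death receptor gene, had 0.642, 0.999 and 1.51 FPKM in libraries labelled Gcgr shRNA, 1.03, 1.13 and 1.28 FPKM in Ctr shRNA libraries and 0.466, 0.434, 0.447 and 0.434 FPKM in control libraries, with the control libraries within a 1.07-fold range. Its call in Gcgr shRNA was lost without Gcgr shRNA 13 or any control library (adjusted limma p up to 0.0842). Fas, the best known death receptor gene, overlapped control: 4.10, 5.60 and 6.56 FPKM in libraries labelled Gcgr shRNA, 4.58, 5.66 and 6.13 FPKM in Ctr shRNA libraries and 4.94, 3.52, 3.22 and 4.39 FPKM in control, with 8 of 13 shRNA libraries above the highest control.

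Aen, a nuclease gene, averaged 7.84 ± 1.56 FPKM in libraries labelled Gcgr shRNA, 7.35 ± 1.38 FPKM in Ctr shRNA libraries and 3.62 ± 0.174 FPKM in control, without overlap. Trp53inp1, whose product modifies p53 activity and autophagy, averaged 8.995 ± 1.64 FPKM in libraries labelled Gcgr shRNA, 9.495 ± 1.68 FPKM in Ctr shRNA libraries and 5.54 ± 1.24 FPKM in control libraries, and 12 of 13 shRNA libraries lay above control. The exception was Ctr shRNA 4 at 6.75 FPKM. The Trp53inp1 call in Gcgr shRNA was lost without Gcgr shRNA 13, 15, 31 or 34 or control 37, 38 or 41, with an adjusted limma p of up to 0.117.

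At the control level were Perp, Ei24 and Pidd1. Perp, a membrane protein gene of desmosomes, averaged 43.1 ± 3.82 FPKM in libraries labelled Gcgr shRNA, 39.6 ± 2.65 FPKM in Ctr shRNA libraries and 38.9 ± 1.68 FPKM in control. Ei24, an endoplasmic reticulum protein gene, averaged 29.03 ± 1.33 FPKM in libraries labelled Gcgr shRNA, 28.3 ± 2.44 FPKM in Ctr shRNA libraries and 27.6 ± 0.839 FPKM in control libraries. Pidd1, the scaffold of the caspase-2 complex, averaged 1.76 ± 0.384 FPKM in libraries labelled Gcgr shRNA, 1.69 ± 0.296 FPKM in Ctr shRNA libraries and 1.74 ± 0.335 FPKM in control libraries. The upper bounds of their 95% intervals against control were at most 0.29 on the log2(FPKM + 1) scale. Apaf1, the core of the apoptosome, stayed under 1 FPKM in every library and was not tested. Its values were 0.481, 0.705 and 0.980 FPKM in libraries labelled Gcgr shRNA, 0.615, 0.683 and 0.846 FPKM in Ctr shRNA libraries and 0.461, 0.475, 0.474 and 0.441 FPKM in control libraries, so all 13 shRNA libraries lay above control, the lowest, Gcgr shRNA 35, barely.

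Repair genes lay within 0.3 of control on the log2(FPKM + 1) scale. Xpc, a damage sensor of nucleotide excision repair (chromosome 6, 91489305 to 91515888), had 7.40, 8.71 and 9.55 FPKM in libraries labelled Gcgr shRNA, 7.91, 8.39 and 9.13 FPKM in Ctr shRNA libraries and 9.28, 9.94, 10.3 and 8.98 FPKM in control. Ddb2, another damage sensor of that pathway, had 1.43, 1.59 and 2.03 FPKM in libraries labelled Gcgr shRNA, 0.899, 1.52 and 1.97 FPKM in Ctr shRNA libraries and 2.27, 1.82, 1.81 and 1.84 FPKM in control libraries. For both genes 9 of 13 shRNA libraries lay under the lowest control and none lay above the highest, but neither difference passed the adjusted threshold. Exons of Ddb2 share 23.83% of their length with exons of Acp2 on the other strand (GENCODE vM21), a gene at 6.72 to 8.25 FPKM, and the sources used here do not say whether counting used strand, so Ddb2 is uncertain.

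Rrm2b, the p53-induced subunit of ribonucleotide reductase, averaged 3.18 ± 0.396 FPKM in libraries labelled Gcgr shRNA, 3.22 ± 0.248 FPKM in Ctr shRNA libraries and 3.72 ± 0.409 FPKM in control. Ercc5, an excision endonuclease gene, averaged 3.84 ± 0.562 FPKM in libraries labelled Gcgr shRNA, 3.78 ± 0.318 FPKM in Ctr shRNA libraries and 3.96 ± 0.282 FPKM in control libraries, with overlap in both directions. Polk, a translesion DNA polymerase gene, differed in direction from the other repair genes, with 2.03, 2.48 and 2.85 FPKM in libraries labelled Gcgr shRNA, 2.30, 2.71 and 2.96 FPKM in Ctr shRNA libraries and 2.01, 2.11, 1.91 and 2.04 FPKM in control. In Ctr shRNA its difference of 0.29 ± 0.08 (SE) was the only repair call, and it was lost (adjusted limma p up to 0.0889) without Ctr shRNA 1 or any control library.

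Metabolic genes held one member far from control and 4 near it. Ephx1, microsomal epoxide hydrolase, which detoxifies reactive epoxides (chromosome 1, 180976210 to 181020904), had 47.2, 50.2 and 77.6 FPKM in libraries labelled Gcgr shRNA, 58.1, 69.1 and 87.4 FPKM in Ctr shRNA libraries and 15.3, 16.4, 18.6 and 18.5 FPKM in control. Its ratio of means to control was 3.21 for Gcgr shRNA and 4.12 for Ctr shRNA, and no shRNA library came near the control values. The sestrin genes Sesn1 and Sesn2, whose products restrain mTORC1 signalling, did not separate. Sesn1 averaged 3.50 ± 0.436 FPKM in libraries labelled Gcgr shRNA, 3.40 ± 0.707 FPKM in Ctr shRNA libraries and 3.45 ± 0.409 FPKM in control. Sesn2 averaged 26.9 ± 4.80 FPKM in libraries labelled Gcgr shRNA, 26.1 ± 5.49 FPKM in Ctr shRNA libraries and 25.9 ± 7.17 FPKM in control libraries. For Sesn2 the 4 control libraries spread 2.06-fold, so its interval against control was wide, from −0.29 to 0.45 for Gcgr shRNA.

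Abhd4, a lipase gene of N-acyl phospholipid metabolism, had 17.3, 20.2 and 22.3 FPKM in libraries labelled Gcgr shRNA, 17.1, 19.5 and 22.2 FPKM in Ctr shRNA libraries and 17.1, 17.2, 16.7 and 17.1 FPKM in control. The control values spanned a 1.03-fold range, and 12 of 13 shRNA libraries lay above them, by little. Fdxr, a mitochondrial ferredoxin reductase gene, lay on the other side, with averages of 5.63 ± 0.835 FPKM in libraries labelled Gcgr shRNA, 5.45 ± 0.571 FPKM in Ctr shRNA libraries and 6.38 ± 0.539 FPKM in control. In 8 of 13 shRNA libraries it was under the lowest control. Neither Abhd4 nor Fdxr passed the adjusted threshold.

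Whether the Gcgr label altered the p53 response was tested between the shRNA groups. In limma, 0 of the 33 genes tested passed an adjusted p of 0.05 for Gcgr shRNA minus Ctr shRNA, and over all 13279 genes tested 0% passed as higher and 0% as lower, with 972 genes at an unadjusted p under 0.05. Voom on the recovered reads likewise called 0 of the members, and 1 gene overall. Differences on the log2(FPKM + 1) scale ran from −0.36 for Ephx1 to 0.38 for Plk3, with a median of 0.026 over the 34 genes. This comparison shares the Ctr shRNA libraries with the contrast on which the genes were chosen.

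For the leading arrest genes the intervals were wide enough to hold moderate differences in either direction. Cdkn1a differed by −0.03 ± 0.19 (SE; 95% interval −0.43 to 0.38), Phlda3 by 0.11 ± 0.17 (−0.25 to 0.47) and Gdf15 by 0.09 ± 0.23 (−0.41 to 0.58). For Mdm2 the interval was narrower, −0.15 to 0.20 around 0.03 ± 0.08, and for Xpc it was −0.10 to 0.14 around 0.02 ± 0.06. These intervals do not show that the groups were alike.

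Ephx1 and Pmaip1 were the 2 members with an unadjusted p under 0.05. Ephx1 averaged 55.2 ± 11.1 FPKM in libraries labelled Gcgr shRNA and 70.9 ± 10.6 FPKM in Ctr shRNA libraries, a difference of −0.36 ± 0.12 (SE; interval −0.61 to −0.12), with a limma p of 0.00618 and an adjusted p of 0.453. In libraries labelled Gcgr shRNA, 5 of 7 values lay under the lowest Ctr shRNA value of 58.1 FPKM, and the exceptions were Gcgr shRNA 13 and 15 at 77.6 and 62.1 FPKM. Pmaip1 averaged 4.67 ± 0.812 FPKM in libraries labelled Gcgr shRNA and 6.22 ± 1.37 FPKM in Ctr shRNA libraries, a difference of −0.34 ± 0.14 (interval −0.63 to −0.05), with a limma p of 0.0234 and an adjusted p of 0.588. Both failed the adjustment for all genes tested.

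**Figure D3:**
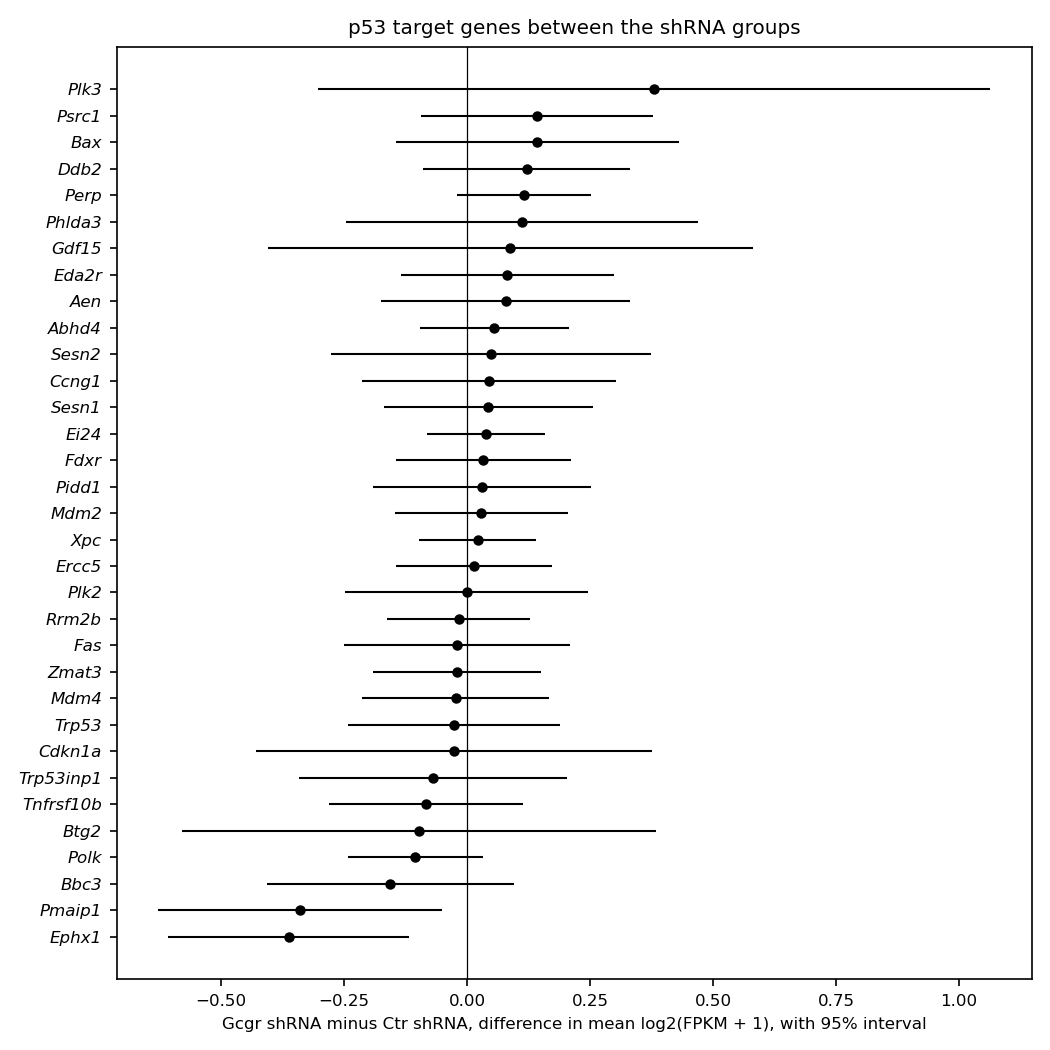
Gcgr shRNA minus Ctr shRNA in mean log2(FPKM + 1) for the 33 genes tested, ordered by size, with points for the difference and bars for its 95% interval. All intervals except those of Ephx1 and Pmaip1 cross 0, and that of Plk3 is the widest, from −0.30 to 1.06.

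The shRNA libraries were compared with one another by how far they stood from control. Each of the 13 shRNA libraries had between 22 and 25 of the 34 genes above all 4 controls and between 3 and 7 below all of them. The share of all genes that did so in a single library was not counted. With only 4 controls, a single library can lie outside them for many genes, so nothing is read from these counts. Over the 16 genes that separated, the median of log2(FPKM + 1) minus the control mean was highest in Gcgr shRNA 13 at 1.22 and lowest in Gcgr shRNA 34 at 0.742, and in Ctr shRNA libraries it ran from 0.867 to 1.10. Since these 16 were taken because every shRNA library lay above control, a median above 0 in each library was fixed in advance. Arrest medians of the shRNA libraries ran from 1.16 to 2.13, with Ctr shRNA 4 highest, and death medians from 0.262 to 0.696, with Gcgr shRNA 32 lowest and Gcgr shRNA 13 highest. Repair medians ran from −0.249 to 0.0266 and lay under the arrest median in every shRNA library. Of the 7 arrest genes 6 were among the 16, and of the 5 repair genes 0 were. An arrest median above 0 in each library was thus also fixed in advance, and nothing is read from this order.

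A few libraries recurred at the ends of the range. Gcgr shRNA 13 was the highest of the 13 shRNA libraries for 6 genes, among them Cdkn1a, Eda2r and Aen, and the lowest for none. Gcgr shRNA 32 was the lowest for 9 genes, among them Cdkn1a, Phlda3, Bax and Zmat3, and the highest for 3, the repair genes Xpc and Ddb2 and the metabolic gene Fdxr. Ctr shRNA 20, the library with fat and urothelial markers, was highest for Bbc3, Ephx1 and Sesn1 and lowest for Mdm2, Ccng1 and Ei24. Leaving out Ctr shRNA 20 together with Gcgr shRNA 31 turned no direction of a called member against control, but it moved calls across the threshold. For Gcgr shRNA against control Pmaip1 (adjusted limma p of 0.0679) and Trp53inp1 (0.0576) lost their calls and Trp53 (0.0438) gained one, and for Ctr shRNA against control Mdm4 gained one.

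**Figure D4:**
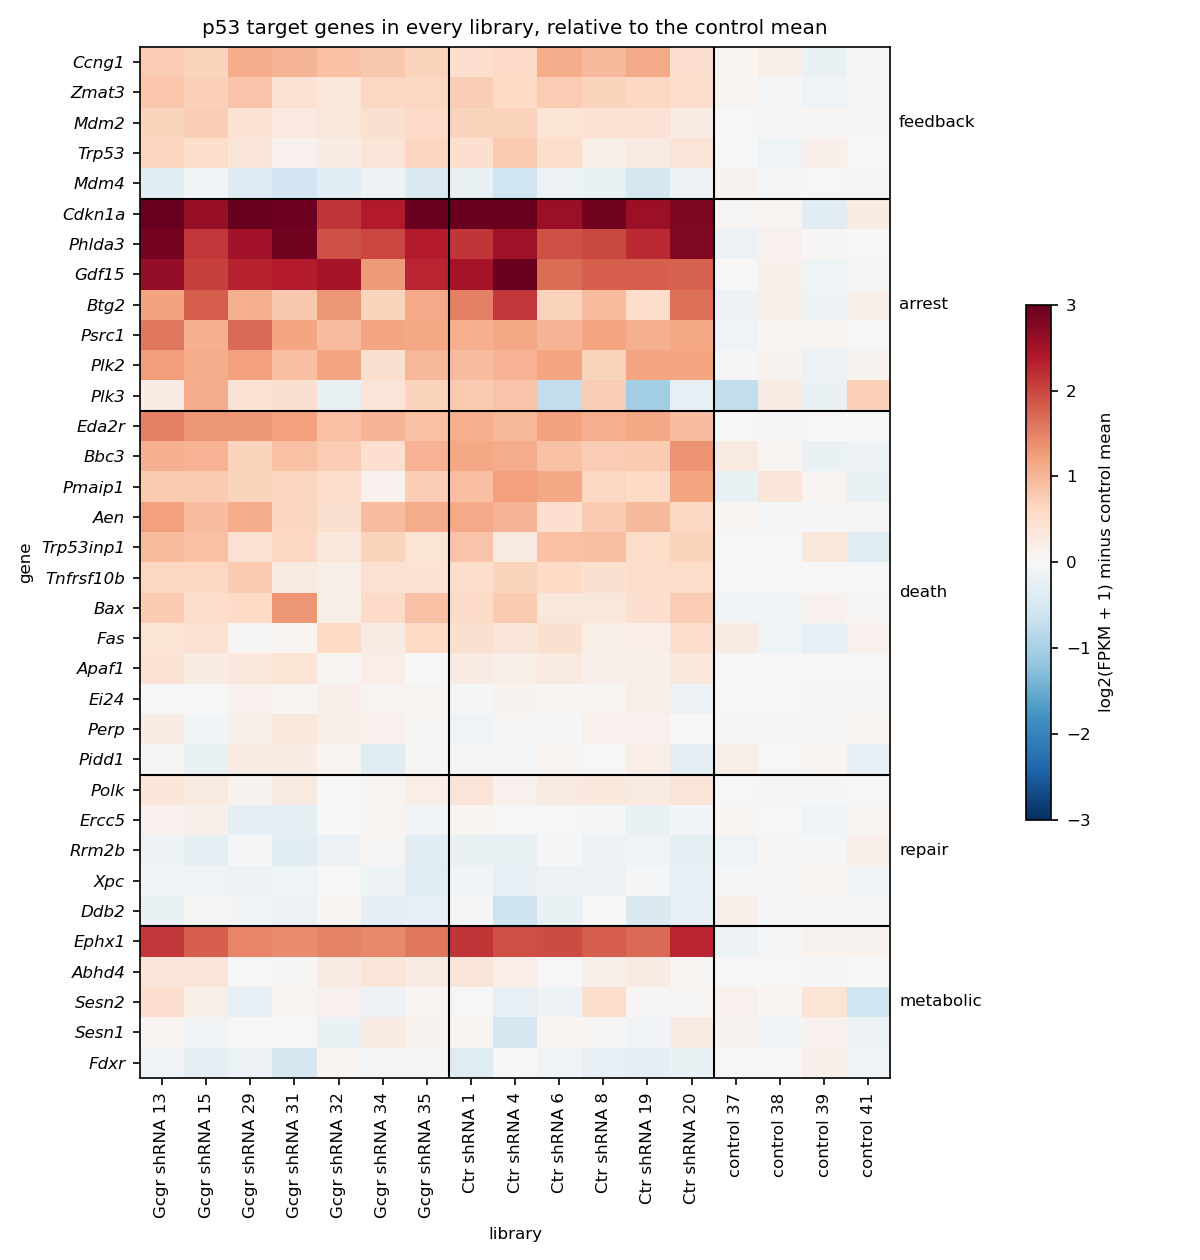
Heat map of log2(FPKM + 1) minus the control mean for the 34 genes (rows, grouped by function) in the 17 libraries (columns, Gcgr shRNA left, Ctr shRNA in the middle, control right), with red above and blue below the control mean and the colour scale held at −3 and 3. Arrest rows other than Plk3 are red in every shRNA library, Ephx1 stands alone among the metabolic rows, and the repair rows stay pale.

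Other genes of the pathway were read from the same fit. Among 40 further p53 targets, 33 were tested. For Gcgr shRNA against control 2 passed as higher, beside the 1.42% of all genes tested, and 0 as lower. For Ctr shRNA against control 6 passed as higher, beside 3.58%, and 1 as lower, and for Gcgr shRNA minus Ctr shRNA 0 passed (7 at an unadjusted p under 0.05, and 0 with voom). The median difference over the 40 was 0.15 for Gcgr shRNA and 0.26 for Ctr shRNA against control, beside −0.0049 for Gcgr shRNA and 0.0071 for Ctr shRNA over all genes tested. These counts depend on the libraries: for Ctr shRNA against control the number higher or lower was 1 without control 37, 2 without Ctr shRNA 4 or control 38, 39 or 41, and 4 without Ctr shRNA 1 or 20.

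Slc19a2, a thiamine transporter gene, was higher in both shRNA groups. It had 5.94, 7.04 and 8.11 FPKM in libraries labelled Gcgr shRNA, 6.13, 7.17 and 9.41 FPKM in Ctr shRNA libraries and 3.66, 3.999, 3.76 and 4.72 FPKM in control. The difference was 0.68 ± 0.10 for Gcgr shRNA (adjusted p = 0.000831 in limma) and 0.73 ± 0.10 for Ctr shRNA (0.000411), all 13 shRNA libraries were above control, and the calls held without each single library. Gtse1, a cell cycle gene whose product binds p53, was the other call in Gcgr shRNA, at 0.795, 1.83 and 3.74 FPKM against 1.16, 1.25 and 1.49 FPKM in Ctr shRNA libraries and 0.412, 0.630, 0.600 and 0.250 FPKM in control, with a difference from control of 0.94 ± 0.23 (adjusted p = 0.0433 in limma). No control library reached 1 FPKM, so Gtse1 passed the filter on low values only through the shRNA libraries. Such entry favours a difference, and the Gtse1 call supports nothing. The Gtse1 call was lost without any one of Gcgr shRNA 13, 15, 29 or 31 or Ctr shRNA 1, 6 or 8 or control 37, 38, 39 or 41 (adjusted p up to 0.136).

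In Ctr shRNA against control the next calls by p were Sesn3, Bid and Shisa5. Sesn3, the third sestrin gene, differed by 0.71 ± 0.18 (adjusted p = 0.0224 in limma), with 3.53, 4.27 and 9.91 FPKM in Ctr shRNA libraries and 2.64, 2.46, 2.76 and 2.28 FPKM in control. Bid, a BH3-only death gene, differed by 0.40 ± 0.10 (0.0240), and Shisa5, an endoplasmic reticulum death gene, by 0.28 ± 0.08 (0.0311). Single libraries decided these calls: that of Sesn3 was lost without control 37, 38, 39 or 41 (adjusted p up to 0.0661), that of Bid without Ctr shRNA 4 or control 37 or 41 (up to 0.0789) and that of Shisa5 without Ctr shRNA 1, 4 or 6 or control 37, 38 or 39 (up to 0.102). The gene called lower was Steap3, an iron reductase gene, at 1.02, 1.63 and 1.84 FPKM in Ctr shRNA libraries and 2.73, 2.58, 2.28 and 2.18 FPKM in control, named here after its value was seen, as were the other 2 higher ones, Gadd45b and Sfn.

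Of 25 kinases, cofactors and relatives acting upstream of p53, 21 were tested. For Gcgr shRNA against control, Ctr shRNA against control and Gcgr shRNA minus Ctr shRNA, 0 passed in limma. Of all genes tested, 2.02%, 7.49% and 0% passed in these comparisons. At an unadjusted p under 0.05 there were 2, 4 and 0 of the 21, beside 2151, 3103 and 972 of the 13279 genes tested. With voom 0 of the 21 passed in each comparison. With 21 genes, nothing about the list is read from these counts. Of 16 proliferation genes, which p21 is known to restrain, 8 were tested and 0 passed in the same 3 comparisons, beside the same shares of all genes. At an unadjusted p under 0.05 in limma there were 3, 1 and 0. Averages lay above control for 14 of the 16 in libraries labelled Gcgr shRNA and for all 16 in Ctr shRNA libraries. The median log2(FPKM + 1) difference from control was 0.46 for Gcgr shRNA and 0.26 for Ctr shRNA, and its cause was not tested. Their summed level was 11.7 to 68.9 FPKM in libraries labelled Gcgr shRNA, 13.7 to 22.1 FPKM in Ctr shRNA libraries and 10.4 to 13.5 FPKM in control. The sums of Gcgr shRNA 29 at 68.9 FPKM and Gcgr shRNA 31 at 38.3 FPKM lay above all other libraries. Cdkn1a in these libraries was at 24.7 and 23.98 FPKM, within the range of the other shRNA libraries. Its relation to these sums was not tested.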

How the data were processed

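RNA was extracted with Trizol and sequenced from SMARTer mRNA libraries made from 1 μg of total RNA, per the labels' protocols. The authors deposited one table of FPKM values per gene and library. Builds GRCm38 and mm10 are named in the submitters' processing notes, and the aligner, counter, annotation and strand setting were not given in the sources used here. Of the lines, 42794 were complete and 1 incomplete line was left out. The table's gene length, which scales the deposited FPKM, is another column. Low values were whole multiples of 1 read for 100% of values (within 0.05 of a step, up to 200 steps), which gave the reads per library. Values of genes with few reads are therefore coarse.

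Groups and library numbers follow the labels. The members, their classes and the lists were chosen with earlier results of these data known. FPKM were taken as log2(FPKM + 1), which understates the differences of low genes, and fitted with limma 3.58.1 in R 4.3.3 (trend option, all 17 libraries, one mean per group). Genes with at least 1 FPKM in at least 4 libraries, 13279 of the 31784 above 0, were tested, with Benjamini-Hochberg adjustment over all of them and a threshold of 0.05. The scripts were tested on simulated data. All 34 members are named, with Gcgr as the targeted gene and, of each further list, up to 4 genes passing per comparison by smallest p. Alternatives were a pseudocount of 0.1, no filter, a mean FPKM of at least 5, rescaling to the same total or by median-ratio factors, voom on the recovered reads, fits of only the 2 groups compared, each library left out, and Ctr shRNA 20 and Gcgr shRNA 31 left out together. Promoter windows came from RefSeq and exon overlaps from GENCODE vM21.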

Additional observations from a re-analysis of the deposited data

Results flagged for a closer look

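In each group the highest and lowest library were compared with their neighbours for all 34 genes, 102 gene and group pairs in all, and 4 held a library far from the others of its group (Dixon's test, which chance passes in about 1 of 20 groups). Pmaip1 was lowest in Gcgr shRNA 34 at 3.01 FPKM, with the next library of that group at 4.34 FPKM. Sesn2 was highest in Ctr shRNA 8 at 36.5 FPKM, with the next at 25.9 FPKM. Ei24 was lowest in control 39 at 26.3 FPKM, with the next control library at 27.9 FPKM. Ddb2 was highest in control 37 at 2.27 FPKM, with the next at 1.84 FPKM. None of these libraries was far from its group for more than 1 of the genes.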

How the results depend on the processing

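No paired analysis was possible because the groups share no replicate numbers. Counts are genes past the adjusted limma threshold. As reported, 268 genes differed between Gcgr shRNA and control (189 higher, 79 lower), 994 between Ctr shRNA and control (475 higher, 519 lower) and 0 between the shRNA groups. Rescaling to the same total gave 133 higher and 113 lower for Gcgr shRNA against control, with 1 of the further targets for Gcgr shRNA and 2 for Ctr shRNA against control. Without the filter the counts were 155 genes and 1 further target for Gcgr shRNA and 597 genes and 2 further targets for Ctr shRNA. A mean FPKM of at least 5 gave 154 genes, 10 members and 1 further target for Gcgr shRNA and 11 members and 4 further targets for Ctr shRNA. Fits of 2 groups gave 438 genes for Gcgr shRNA against control. Further targets for Gcgr shRNA numbered 1 in that fit, with voom, and without both Ctr shRNA 20 and Gcgr shRNA 31. Between the shRNA groups 1 gene passed with a pseudocount of 0.1, with a mean FPKM of at least 5, with voom and with 2 groups fitted. Leaving out each library in turn gave 103 to 348 genes and 12 to 18 members for Gcgr shRNA against control, 456 to 1264 genes and 16 to 19 members for Ctr shRNA against control, and 0 to 3 genes and 0 members between the shRNA groups. Further targets then numbered 1 to 2 for Gcgr shRNA and 1 to 7 for Ctr shRNA.

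Between the shRNA groups, where no member passed, small log2 differences turned their sign. With the same total they were −0.012 for Mdm2, −0.0041 for Ei24, −0.019 for Xpc, −0.022 for Ercc5 and −0.0047 for Fdxr. Without both libraries they were 0.013 for Trp53, 0.049 for Mdm4, −0.046 for Ccng1, 0.042 for Btg2, 0.051 for Plk2, −0.0076 for Gdf15, 0.057 for Fas, −0.00015 for Ei24 and −0.061 for Pidd1. With single libraries left out they ran from −0.080 to 0.043 for Trp53, −0.023 to 0.073 for Mdm2, −0.082 to 0.018 for Mdm4, −0.017 to 0.11 for Ccng1, −0.059 to 0.028 for Zmat3, −0.14 to 0.088 for Cdkn1a, −0.24 to 0.078 for Btg2, −0.071 to 0.089 for Plk2, −0.00044 to 0.30 for Gdf15, −0.063 to 0.032 for Fas, −0.0015 to 0.067 for Ei24, −0.024 to 0.089 for Pidd1, −0.051 to 0.0076 for Rrm2b, −0.0015 to 0.053 for Xpc, −0.022 to 0.051 for Ercc5, −0.051 to 0.098 for Sesn1, −0.021 to 0.15 for Sesn2 and −0.0030 to 0.092 for Fdxr. The cause was not tested.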
